A study of Mus musculus with 146 samples.

Results

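Transcripts of 6 genes that brain cells make in quantity, Syp, Eno2, Rbfox3, Clu, Ptgds and Serpinf1, were followed library by library through T cells sorted from mouse brain. They are 6 of the 85 genes in the deposited table of sorted T cells, and were picked by name because earlier results of these data had shown them among its genes. All 85 genes had been chosen by the authors on one contrast, ko/fl against ko/wt in CD25pos cells, where each passes an adjusted p of 0.1 in the authors' deposited table (100% of the 85, by their choice); the largest is 0.0991, and 17.6% pass 0.05. The 6 members' adjusted p-values in that table run from 0.0118 (Ptgds) to 0.0682 (Rbfox3, Clu and Serpinf1), and of the other marker genes considered here the nearest outside the threshold was Camk2a at 0.101. Values that touch CD25pos libraries are therefore given as a description, with no test, and the genotype contrast in CD25neg cells is the only one tested. In the authors' statistics for CD25pos cells 103 of 8627 genes pass an adjusted p of 0.1, and how the 85 were kept is not given.

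The T cells came from F1 mice of C57BL/6 and SJL with relapsing-remitting EAE (experimental autoimmune encephalomyelitis), a model in which immune cells enter the brain and spinal cord. Every animal had the genotype Cx3cr1-CreER:RPL22-HA, which puts an HA-tagged ribosomal protein into cells that use the Cx3cr1 promoter, mainly microglia and related macrophages in the brain. The control genotype was Ifngr ko/wt, with a null and a normal allele of the interferon-gamma receptor gene, so controls carried a null allele too. The other was Ifngr ko/fl, with a null allele and a floxed allele that Cre deletes where Cx3cr1 is expressed. All mice had received 5 mg tamoxifen by gavage 4 times at 4 to 6 weeks of age, per the labels' protocols. Sorting gave 4 groups: 6 CD25neg ko/wt, 6 CD25neg ko/fl, 5 CD25pos ko/wt and 6 CD25pos ko/fl libraries, 23 of the 146 of the series. CD25 is the alpha chain of the interleukin-2 receptor, carried by regulatory and by recently activated T cells. The labels give neither the disease stage nor the age at sorting, nor whether replicates were separate mice or pools, so p-values measure only the spread between these libraries, which may be technical. Titles of the CD25pos ko/fl libraries read "CDpos" without the 25; the deposited table's columns supply it.

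Neurons release transmitter from synaptic vesicles, and Syp (synaptophysin) is an abundant membrane protein of those vesicles. Eno2 encodes the gamma enolase of neurons, a glycolytic enzyme, and Rbfox3 encodes NeuN, an RNA-splicing factor used as a mark of mature neuronal nuclei. Clu (clusterin) is a secreted chaperone made in quantity by astrocytes. Ptgds makes prostaglandin D2 and is abundant in the leptomeninges, and Serpinf1 encodes the secreted factor PEDF, also made by fibroblasts of the brain's borders. None of the 6 is a defining gene of T cells. Sorted cells can carry RNA of the tissue they were taken from, and such transcripts are commonly inspected for that reason; the source of their reads here was not tested.

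In the GENCODE annotation of GRCm38 (mm10), Syp lies on the plus strand of chrX:7638471-7653256, Eno2 on the minus strand of chr6:124760053-124769673 and Rbfox3 on the minus strand of chr11:118489762-118911597. Clu lies on the plus strand of chr14:65968483-65981547, Ptgds on the minus strand of chr2:25466709-25470046 and Serpinf1 on the minus strand of chr11:75409769-75422701. All are protein-coding. Whether counting used strand is not given in the sources used here, so reads of Syp cannot be told apart from those of the antisense gene Gm14703 where they overlap, nor reads of Rbfox3 from those of Gm11750, Gm11749 and Gm25040, which lie within it. No gene overlaps the other 4 members.

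The promoters of Syp, Rbfox3 and Ptgds are shown because these genes, with Eno2, had their highest value in the same library. They are RefSeq sequences of GRCm38.p6, 250 bases before to 50 after the start, 5′ to 3′ on the gene's strand, at chrX:7638330-7638629 (plus), chr11:118760992-118761291 (minus) and chr2:25469700-25469999 (minus). Capitals mark matches on either strand to the TATA box (TATAAA), the CCAAT box, the GC box (GGGCGG) or a half-site of REST (TTCAGCACC), a repressor of neuronal genes outside neurons; the 4 motifs do not overlap in these windows.
Syp: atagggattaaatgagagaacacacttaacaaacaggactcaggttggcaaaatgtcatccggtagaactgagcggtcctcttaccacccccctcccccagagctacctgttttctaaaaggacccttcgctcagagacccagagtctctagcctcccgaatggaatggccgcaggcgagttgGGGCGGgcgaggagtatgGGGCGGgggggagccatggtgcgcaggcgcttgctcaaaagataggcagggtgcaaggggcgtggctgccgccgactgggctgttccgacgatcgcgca
Rbfox3: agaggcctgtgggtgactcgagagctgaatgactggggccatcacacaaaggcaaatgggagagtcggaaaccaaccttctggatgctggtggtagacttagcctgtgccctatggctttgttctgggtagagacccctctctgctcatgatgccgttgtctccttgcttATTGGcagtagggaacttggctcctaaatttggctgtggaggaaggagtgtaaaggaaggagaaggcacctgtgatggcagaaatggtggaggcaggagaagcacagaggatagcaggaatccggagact
Ptgds: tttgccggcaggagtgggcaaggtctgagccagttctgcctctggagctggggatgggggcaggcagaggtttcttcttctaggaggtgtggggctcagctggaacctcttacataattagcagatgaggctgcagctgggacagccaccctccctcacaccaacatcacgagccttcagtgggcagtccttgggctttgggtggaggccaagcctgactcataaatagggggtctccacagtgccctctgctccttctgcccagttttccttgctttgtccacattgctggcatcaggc
The Syp promoter held 18 CG dinucleotides and 2 GGGCGG boxes, the Rbfox3 window 4 CG and 1 CCAAT box read on the other strand, and the Ptgds promoter 2 CG and none of the 4 motifs. Over 32851 RefSeq promoters of this length the median was 7 CG; 35.7% held the GC box, 37.4% the CCAAT box, 13.6% the TATA box and 0.371% the REST half-site. The 3 promoters thus shared none of the motifs searched. The Eno2 promoter, not shown, held 15 CG, 1 TATA box read on the other strand and none of the other motifs. The RefSeq starts of the 3 genes shown lie inside the GENCODE genes given above, and the windows of Rbfox3 and Ptgds lie wholly inside them. Of the 6 members, 5 had a RefSeq promoter; Clu had none in the table used.

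Values are called normalized counts here: the reads of a gene after division by the library's size factor. Every value was a whole multiple of 1 step per library, and that step was taken as 1 read; the reads given below are inferred in this way, and the 85 genes hold few low values to set the step from. Over the 85 genes, CD25neg ko/wt libraries held 1049 to 2393 reads, CD25neg ko/fl 2194 to 3443, CD25pos ko/wt 608 to 2062 and CD25pos ko/fl 1312 to 3292. A single read was worth 0.641 to 1.70, 0.437 to 0.721, 0.877 to 3.47 and 0.464 to 1.20 normalized counts in the same order, so ko/wt libraries, and CD25pos ko/wt above all, measured low genes most coarsely. Counting intervals and limits below cover counting error only.

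The 6 members took their largest shares of the table's reads in libraries 2 and 3 of CD25pos ko/wt. Libraries 1 and 5 of that group lay within the range of CD25neg ko/wt. All 6 had been chosen on the contrast of that group with CD25pos ko/fl, so a higher share than in CD25pos ko/fl partly follows from the choice. The share in libraries 1 to 5 of that group was 2.04%, 8.55%, 21.8%, 3.28% and 2.80%. Library 3, with 263 member reads of 1206, had a 95% Wilson interval of 19.6% to 24.2%, and library 2, with 52 of 608, one of 6.58% to 11.04%. The share ranged from 0.572% to 2.88% in CD25neg ko/wt, 0.377% to 0.905% in CD25neg ko/fl and 0.835% to 2.13% in CD25pos ko/fl. Libraries 2 and 3 of CD25pos ko/wt thus stood apart from the other 21, and the group means, genotype differences and fraction differences below are given with and without them. Bulk values do not separate fewer cells of a type from less RNA per cell.

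**Figure D1:**
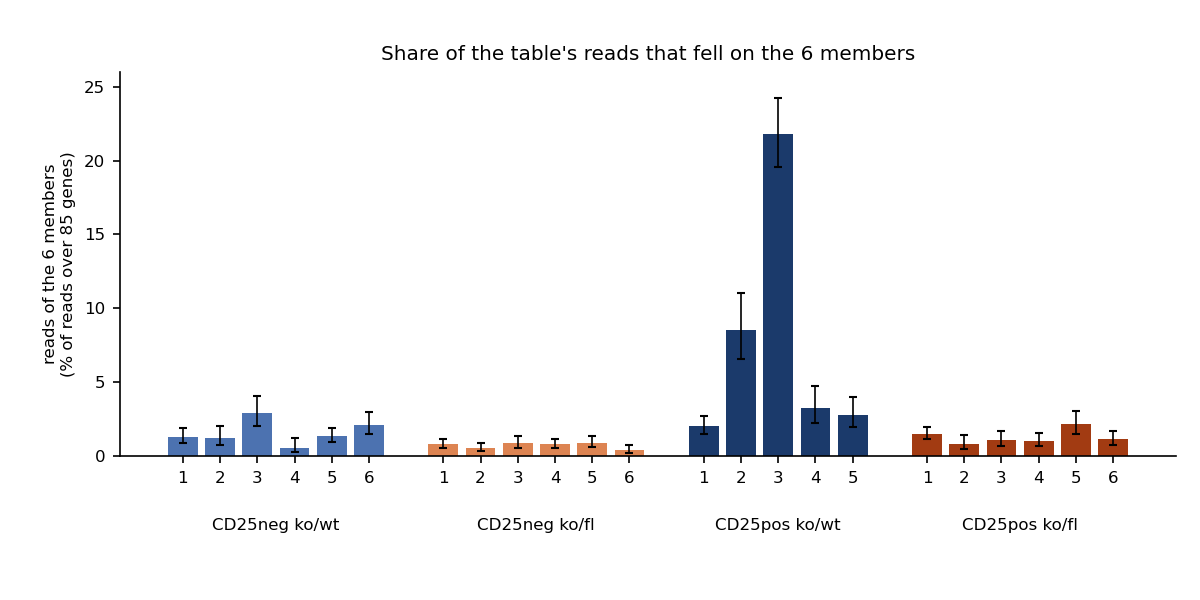
Share of the reads over 85 genes that fell on the 6 members (vertical axis, %), for each library (horizontal axis, replicate number) of the 4 groups; bars start at 0 and whiskers are 95% Wilson intervals. Library 3 of CD25pos ko/wt reached 21.8% and library 2 reached 8.55%, and the other 21 libraries lay between 0.377% and 3.28%.

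Syp, the synaptic vesicle gene, varied most between libraries. In CD25pos ko/wt libraries 1 to 5 it had 5.26, 45.1, 348, 6.35 and 1.95 normalized counts, from 6, 13, 152, 3 and 1 reads. Library 3 alone gave 86.9% of the group's Syp reads. Values in CD25pos ko/fl ran from 0.879 through a median of 2.94 to 8.68. In CD25neg cells the lowest, median and highest were 0, 2.31 and 22.1 in ko/wt and 0.721, 1.89 and 2.67 in ko/fl. Outside libraries 2 and 3, the CD25pos ko/wt values lay within the range of CD25pos ko/fl, and all 4 groups overlapped.

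Eno2, the neuronal enolase, was spread more evenly. CD25pos ko/wt libraries 1 to 5 had 14.0, 17.4, 32.1, 12.7 and 5.86 normalized counts, from 16, 5, 14, 6 and 3 reads. CD25pos ko/fl ran from 1.58 through 3.38 to 8.42, so library 5 of the ko/wt group, and no other, fell within its range. CD25neg ko/wt ran from 0 through 4.74 to 7.02 and CD25neg ko/fl from 1.22 through 2.15 to 2.81. Libraries 1 and 4 of CD25pos ko/wt, where Syp was low, still held more Eno2 than any library of the other 3 groups.

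Rbfox3, the NeuN gene, was near the detection limit everywhere but in library 3. CD25pos ko/wt libraries 1 to 5 had 0, 6.94, 32.1, 4.23 and 1.95 normalized counts, from 0, 2, 14, 2 and 1 reads. The other groups held 2 reads in 6 CD25neg ko/wt libraries, 6 in CD25neg ko/fl and 3 in CD25pos ko/fl, with highest values of 1.76, 2.03 and 1.20. Library 1 of CD25pos ko/wt, at 0 reads, allows up to 2.63 normalized counts at 3 reads, and the same limit in the 5 CD25neg ko/wt libraries at 0 reached 5.10. Of the 19 reads of CD25pos ko/wt, library 3 gave 14; without it 5 reads were left, and without libraries 2 and 3 there were 3, against 3 in CD25pos ko/fl.

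**Figure D2:**
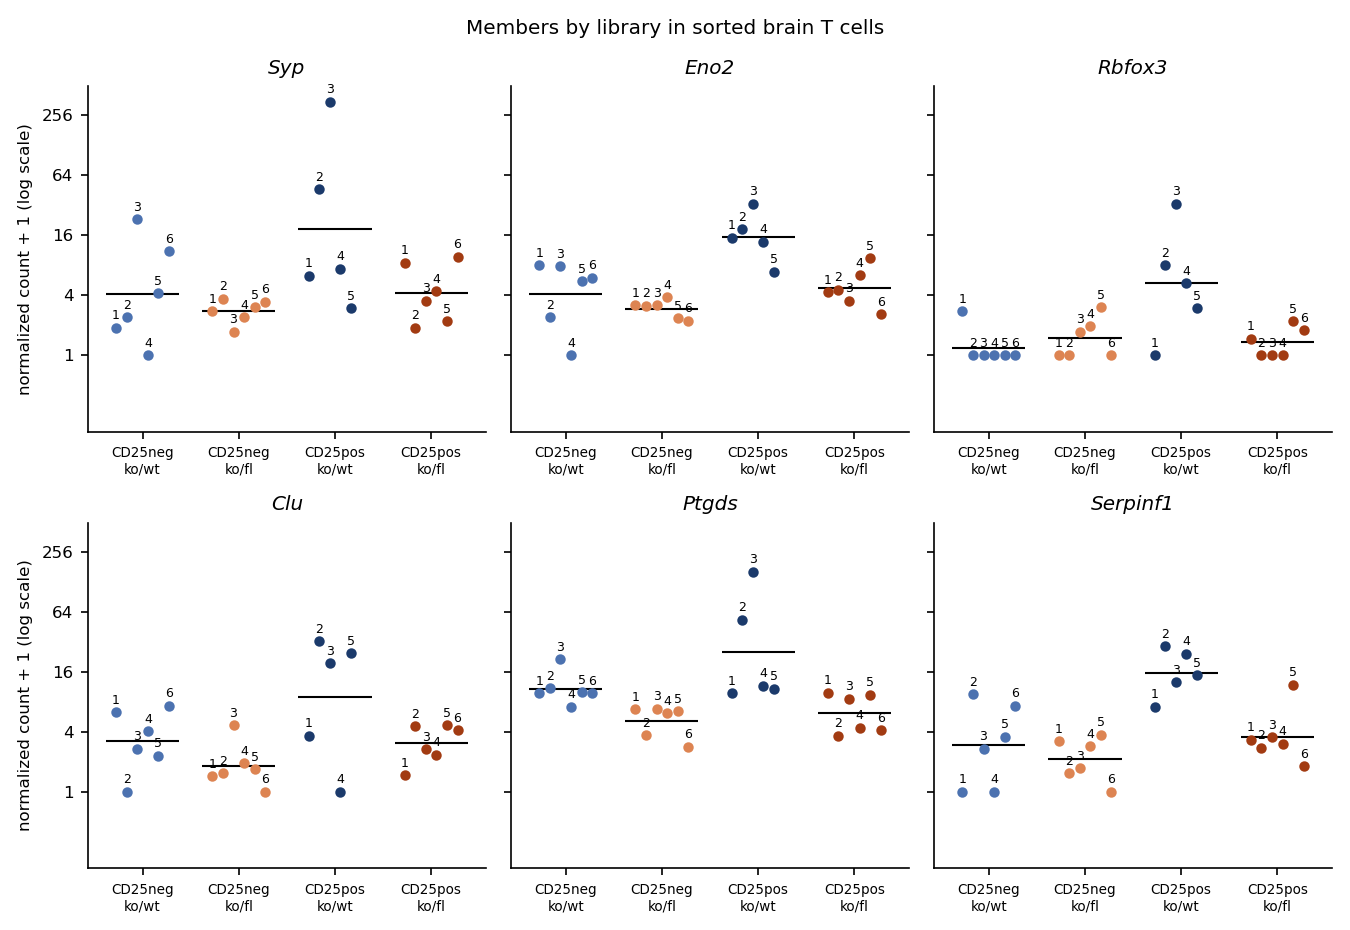
Normalized count + 1 (log scale) of each member in each of the 23 libraries; points are libraries with their replicate numbers, colours and horizontal positions are the 4 groups, and black lines are means on the log2(value + 1) scale. Library 3 of CD25pos ko/wt is the highest point for Syp (348), Eno2 (32.1), Rbfox3 (32.1) and Ptgds (160.3), and library 2 for Clu (31.2) and Serpinf1 (27.8).

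Clu, the astrocyte-enriched secreted chaperone, had 2.63, 31.2, 18.3, 0 and 23.5 normalized counts in CD25pos ko/wt libraries 1 to 5, from 3, 9, 8, 0 and 12 reads. Its high libraries were 2, 5 and 3, and library 4 had no read. CD25pos ko/fl ran from 0.464 through 2.42 to 3.61. CD25neg ko/wt ran from 0 through 2.37 to 6.25 and CD25neg ko/fl from 0 through 0.606 to 3.60.

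Ptgds, the prostaglandin D synthase gene, was the only member with at least 3 reads in every library. CD25pos ko/wt libraries 1 to 5 had 8.77, 52.1, 160.3, 10.6 and 9.77 normalized counts, from 10, 15, 70, 5 and 5 reads. As with Syp, libraries 3 and 2 stood above the other 3, which lay between 8.77 and 10.6. CD25pos ko/fl ran from 2.64 through 5.46 to 8.83, so its highest library passed the lowest of ko/wt by a small margin. CD25neg ko/wt ran from 6.09 through 8.88 to 20.4 and CD25neg ko/fl from 1.82 through 5.29 to 5.77, with no overlap between them.

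Serpinf1, the PEDF gene, was not led by library 3. CD25pos ko/wt libraries 1 to 5 had 6.14, 27.8, 11.4, 23.3 and 13.7 normalized counts, from 7, 8, 5, 11 and 7 reads. CD25pos ko/fl ran from 0.789 through 2.17 to 10.8, and its library 5, the highest, lay above library 1 of ko/wt. CD25neg ko/wt ran from 0 through 2.13 to 8.43 and CD25neg ko/fl from 0 through 1.30 to 2.71. Each CD25pos ko/wt library but the lowest exceeded all libraries of the other groups.

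With all libraries, CD25pos ko/wt had the highest mean of the 4 groups for all 6 members. Without its libraries 2 and 3 this held for 4 of them: its mean fell to 4.52 for Syp and 9.71 for Ptgds, below those of CD25neg ko/wt, and was 10.9 for Eno2, 2.06 for Rbfox3, 8.69 for Clu and 14.4 for Serpinf1. The CD25neg ko/wt means keep that group's own highest library for Syp and Ptgds, library 3. Without it they were 3.10 for Syp and 8.49 for Ptgds, so the order of these groups depends on which libraries are left out. The spreads that follow are with all libraries. They are a description and no test, since the genes were chosen on CD25pos ko/wt against CD25pos ko/fl. The gap to the next group exceeded the larger SD of both groups for 2 of the 6 members. For Eno2 it was 16.4 ± 9.70 (SD, n = 5) against 4.12 ± 2.86 (SD, n = 6) in CD25neg ko/wt, and for Serpinf1 16.5 ± 8.86 (n = 5) against 3.37 ± 3.70 (n = 6) in CD25pos ko/fl. The means of Syp, 81.3 ± 150.1 against 6.26 ± 8.55 in CD25neg ko/wt, of Ptgds, 48.3 ± 65.2 against 10.5 ± 5.02, of Clu, 15.1 ± 13.5 against 2.92 ± 2.42, and of Rbfox3, 9.04 ± 13.1 against 0.615 ± 0.808 in CD25neg ko/fl, did not differ beyond that spread. No neighbours further down the order differed beyond it, for any member. CD25neg ko/fl had the lowest mean for 5 members; for Rbfox3 the lowest was CD25neg ko/wt, at 0.293 ± 0.717.

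The 6 members did not keep fixed proportions. In library 3 of CD25pos ko/wt, Syp made up 57.8% of the 263 member reads (95% Wilson interval 51.8% to 63.6%), Ptgds 26.6%, Clu 3.04% and Serpinf1 1.90%. In library 2, Syp made up 25.0% of 52 reads (15.2% to 38.2%), Ptgds 28.8%, Clu 17.3% and Serpinf1 15.4%. Library 5 was led by Clu, with 41.4% of 29 reads (25.5% to 59.3%), library 4 by Serpinf1, with 40.7% of 27 (24.5% to 59.3%), and library 1 by Eno2, with 38.1% of 42 (25.0% to 53.2%). Ptgds led in the pooled reads of the other groups, at 38.6% of 140 in CD25neg ko/wt, 39.7% of 121 in CD25neg ko/fl and 29.9% of 157 in CD25pos ko/fl.

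From library 2 to library 3 of CD25pos ko/wt, Syp was 7.71-fold higher (95% exact interval of the read ratio 4.38 to 14.8) and Ptgds 3.08-fold (1.75 to 5.79). The ratio for Clu was 0.586 (0.197 to 1.71) and for Serpinf1 0.412 (0.106 to 1.43). Reads of Syp per read of Eno2 were 0.375, 2.60, 10.9, 0.500 and 0.333 in libraries 1 to 5. These intervals cover counting error between 2 single libraries, which were singled out for their values, and are a description.

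Of all 85 genes, 19 (22.4%) had their highest value over the 23 libraries in library 3 of CD25pos ko/wt and 13 (15.3%) in library 2. Among the 6 members these were 4 (Syp, Eno2, Rbfox3 and Ptgds) and 2 (Clu and Serpinf1).

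In CD25pos cells, the contrast on which the genes were chosen, all 6 members were lower in ko/fl. On the log2(value + 1) scale, which understates differences of low values, ko/fl minus ko/wt was -2.16 for Syp, -1.72 for Eno2, -1.98 for Rbfox3, -1.54 for Clu, -2.05 for Ptgds and -2.12 for Serpinf1, with a median over all 85 genes of -0.82. The value ranges overlapped for all 6; they did not overlap for 4.71% of the 85 genes that were lower and 18.8% that were higher in ko/fl, and nothing is read from these counts, since the choice of genes used this contrast. Without library 3 the differences were -1.10, -1.44, -1.31, -1.26, -1.38 and -2.21 in the same order. Without libraries 2 and 3, an alternative chosen after seeing the data, they were -0.31, -1.26, -0.90, -0.55, -0.80 and -1.94, with a median over all genes of -0.60.

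Leaving out libraries 2 and 3 changed Serpinf1 and Eno2 least and Syp most. Serpinf1 and Eno2 had ratios of ko/wt to ko/fl means of 4.26 and 2.64 without libraries 2 and 3, against 4.88 and 3.99 with them. For Syp the ratio of means went from 20.3 with all libraries to 3.66 without library 3 and 1.13 without both. That of Ptgds went from 8.53 to 3.59 and 1.71, and that of Clu from 6.59 to 6.25 and 3.79, the last resting on 15 reads of which library 5 gave 12. Rbfox3 was left with 3 reads in each group.

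**Figure D3:**
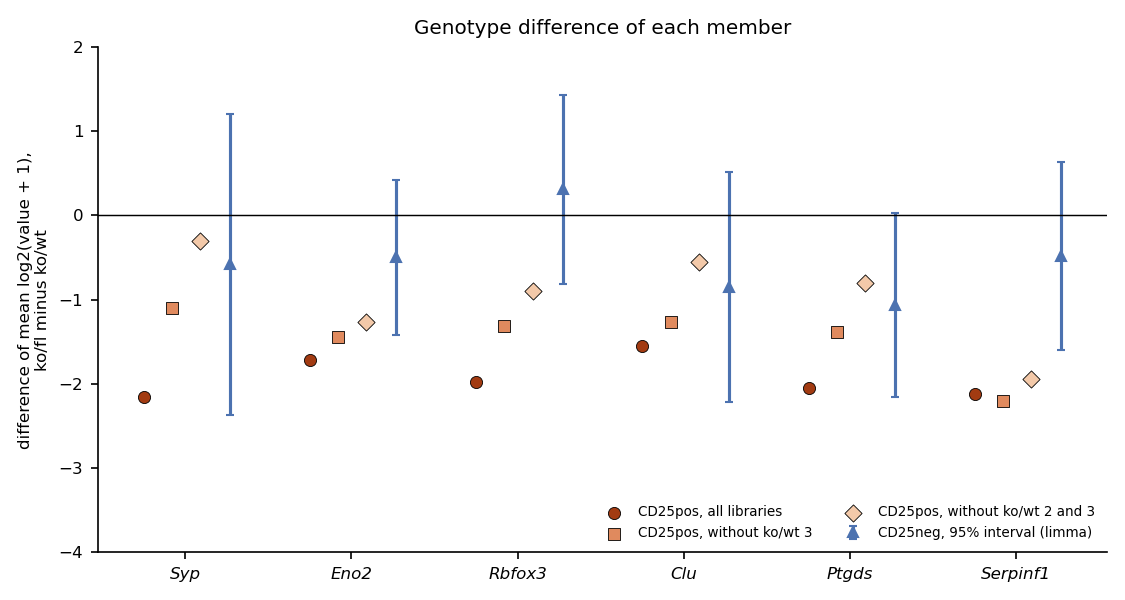
Difference of mean log2(value + 1), ko/fl minus ko/wt (vertical axis), of each member: CD25pos with all libraries (circles), without ko/wt library 3 (squares) and without ko/wt libraries 2 and 3 (diamonds), and CD25neg with its 95% interval from limma (triangles). Syp moves from -2.16 to -0.31 in CD25pos while Serpinf1 moves from -2.12 to -1.94. All 6 CD25neg intervals include 0, with a spread shared by all 23 libraries, CD25pos among them.

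The contrast on which the genes were chosen holds no CD25neg library, and the CD25neg genotype contrast was tested. How the 85 genes were kept from the 103 past 0.1 is not given, so whether CD25neg libraries played a part in that step is not known. No member passed the test, and neither did any other gene (0 of 85 at an adjusted p below 0.05 in limma, 0%). At an unadjusted p below 0.05, limma had 8 of 85 genes, 4.71% lower and 4.71% higher in ko/fl and none of them a member, and the exact permutation test had 11, 7.06% lower and 5.88% higher, with Ptgds among the former. The authors' deposited table likewise has 0% of the 85 genes past 0.05 or 0.1 in this contrast. Ptgds came nearest among the members, with 10.5 ± 5.02 normalized counts in ko/wt and 4.42 ± 1.72 in ko/fl (SD, n = 6 each). Its difference of -1.07 ± 0.53 (SE) on the log2 scale had a 95% interval from -2.16 to 0.03, an unadjusted p of 0.0552 and an adjusted p of 0.521 in limma. That SE and interval rest on a spread shared with the CD25pos libraries. The log2 SD of Ptgds was 1.80 in CD25pos ko/wt, against 0.53 in CD25neg ko/wt and 0.54 in CD25neg ko/fl. With the CD25neg libraries alone its adjusted p in limma was 0.116. All 6 ko/wt libraries lay above all 6 ko/fl libraries, which held for this gene only among the 85 (1.18%). In the exact two-sided permutation test over 924 regroupings its p was 0.00216, the smallest that test can give, and 0.184 after Benjamini-Hochberg adjustment over the 85 genes. The ranges lay close, 6.09 at the lowest ko/wt library and 5.77 at the highest ko/fl library, and the reads were 54 and 48.

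The other 5 members had smaller or less even differences between the CD25neg genotypes. By limma, Clu differed by -0.85 (95% interval -2.21 to 0.51), Syp by -0.58 (-2.37 to 1.21), Eno2 by -0.50 (-1.41 to 0.42), Serpinf1 by -0.48 (-1.60 to 0.64) and Rbfox3 by 0.31 (-0.81 to 1.43), with adjusted p-values of 0.769 to 0.939. Without CD25neg ko/wt library 3 the difference of Syp was -0.08. Their exact permutation p-values ran from 0.141 for Clu to 0.461 for Serpinf1. Mean log2 values were lower in ko/fl for 5 of 6 members and for 54.1% of all 85 genes, and the median difference was -0.54 for the members and -0.04 for all genes.

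Between the sorted fractions of ko/wt mice, all 6 members were higher in CD25pos cells, by 2.17 for Syp, 1.90 for Eno2, 2.15 for Rbfox3, 1.46 for Clu, 1.23 for Ptgds and 2.40 for Serpinf1 on the log2(value + 1) scale, beside a median of 0.47 for all 85 genes. This contrast shares the CD25pos ko/wt libraries with the one above. Without libraries 2 and 3 the differences were 0.32, 1.44, 1.07, 0.47, -0.01 and 2.21, and the median of all genes 0.31. Each member necessarily moved by as much as in the CD25pos genotype contrast, since the same libraries left the same group mean. Rbfox3 had 19 reads against 2, of which 5 were left without library 3 and 3 without libraries 2 and 3. The value ranges overlapped for all 6, and did not for 16.5% of the 85 genes that were lower and 5.88% that were higher in CD25pos cells. In the authors' deposited table, 45.9% of the 85 genes pass an adjusted p of 0.05 between these fractions, among them 5 of the 6 members, with Clu at 0.0622.

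In ko/fl mice, CD25pos minus CD25neg was 0.60 for Syp, 0.68 for Eno2, -0.13 for Rbfox3, 0.77 for Clu, 0.25 for Ptgds and 0.75 for Serpinf1, beside a median of -0.02 for all genes. With all libraries the value was below that of ko/wt for 6 of 6 members, and without CD25pos ko/wt libraries 2 and 3 for 3 of 6, with Syp, Clu and Ptgds above it. The value ranges overlapped for all 6 members; they did not for 3.53% of the 85 genes that were lower and 2.35% that were higher in CD25pos cells. In the authors' deposited table, 8.24% of the 85 genes pass 0.05 in this contrast and none of the members does; their adjusted p-values run from 0.350 for Eno2 to 0.882 for Rbfox3. The difference between the genotypes in this fraction contrast was not tested, because both CD25pos groups had served to choose the genes.

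Genes of the same cell types that were not chosen by the authors appear in their deposited table of statistics for CD25pos cells, which holds 8627 genes and no values per library. Its log2 fold changes, ko/fl over ko/wt, have a median of 0.04 and 47.3% lie below 0; 0.788% of the genes pass an adjusted p of 0.1 on the lower side and 0.406% on the higher side. These fold changes come from the same CD25pos contrast on which the members were chosen, so they are no independent check on the members. How genes entered this table is not given, and only 13 of the 28 listed neuronal genes are in it. The 47.3% over all genes is not matched for low expression, so the directions of the lists were not tested against it. The 15 lists of marker genes used here hold 154 genes and were compiled with earlier results of these data known. Apart from Syp, Eno2 and Rbfox3, 10 neuronal genes of the list of 28 appear in it and all 10 lie below 0, with a median of -0.88, but none passes 0.1. They include Camk2a, a kinase of excitatory synapses, at -2.54 (authors' adjusted p 0.101), Slc17a7, the vesicular glutamate transporter VGLUT1, at -2.01 (0.200) and Kif5a, a neuronal kinesin, at -1.39 (0.498). Apart from Clu, all 4 of the astrocyte genes that appear lie below 0, with a median of -2.15 and none past 0.1: Gfap, the astrocyte intermediate filament, at -3.26 (0.107), Mt3, a brain metallothionein, at -2.56 (0.202), Ndrg2 at -1.11 (0.318) and Glul, glutamine synthetase, at -1.74 (0.358).

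Oligodendrocyte genes lay closer to 0, with 5 of 6 below it and a median of -0.30; Mbp, the myelin basic protein gene, was at -0.95 (authors' adjusted p 0.166). Of the 10 genes of the meningeal and border fibroblast list, which holds Ptgds and Serpinf1, 1 more appears, the GABA transporter gene Slc6a13, at 1.61 (0.583), on the other side of 0. Ttr, which marks the choroid plexus, was at -1.92 (0.409), and the mural genes Vtn and Kcnj8 at -5.34 (0.529) and -0.85 (0.919). The endothelial list had 3 of 5 genes below 0 and a median of -0.20.

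Microglial genes did not share the direction of the neuronal and astrocyte genes in the authors' deposited statistics. All 13 on the list appear, 11 above 0, with a median of 0.38 and none past 0.1; the purinergic receptor gene P2ry12 was at 2.11 (0.436). Other myeloid markers had 3 of 4 above 0 and a median of 1.38. T cell genes had 10 of 12 below 0 and a median of -0.21, and regulatory T cell genes 7 of 12 below 0 and a median of -0.07, with Foxp3, the defining transcription factor of regulatory T cells, at -0.21 (0.821) and Il2ra, which encodes CD25, at -0.81 (0.404). B cell genes had 2 of 3 below 0 (median -0.38), and 0 of 5 erythroid, 0 of 4 ependymal and 0 of 6 oligodendrocyte progenitor genes appear. These lists hold no values per library here, so whether their genes follow libraries 2 and 3 was not tested.

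**Figure D4:**
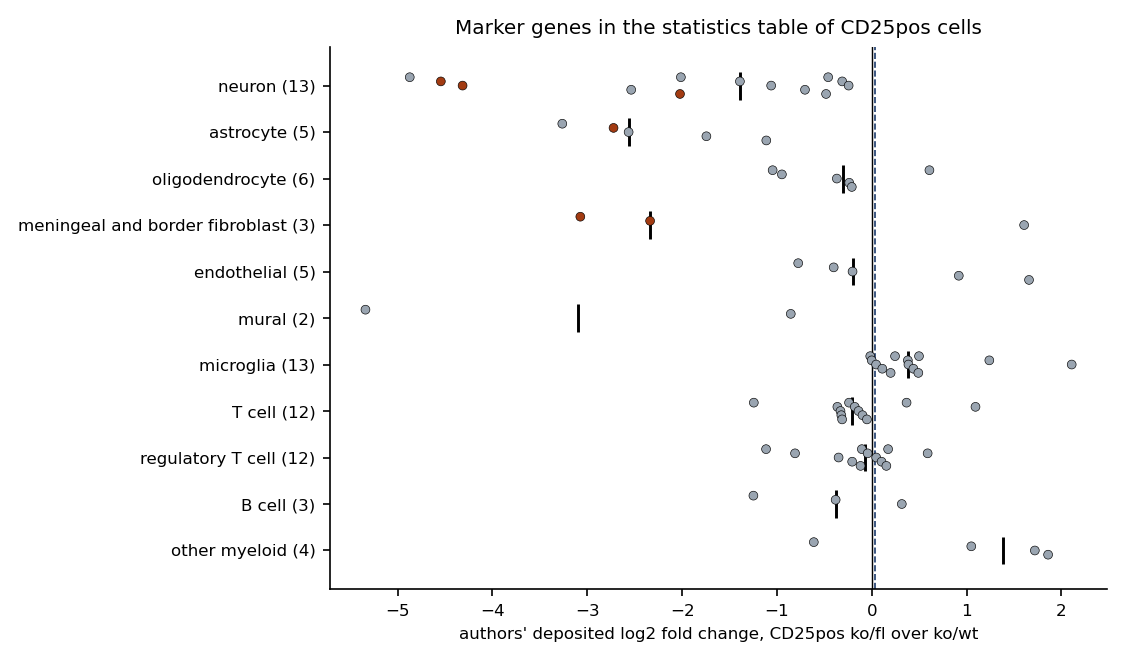
Authors' deposited log2 fold change of CD25pos cells, ko/fl over ko/wt (horizontal axis), of each marker gene (points) in the lists with at least 2 genes in the table of statistics (vertical axis, number of genes in brackets); red points are the members, black bars list medians and the dashed line the median of all 8627 genes. All 13 neuronal and all 5 astrocyte genes lie below 0, and 11 of 13 microglial genes above it.

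Within the groups, members varied together in part. After subtracting each group's mean from log2(value + 1), the Pearson correlation over the 23 libraries, which share size factor and depth within a library, was 0.75 between Syp and Ptgds, 0.73 between Rbfox3 and Ptgds and 0.53 between Syp and Rbfox3. Without library 3 of CD25pos ko/wt these became 0.53, 0.48 and 0.14. The 15 pairs of members had a median of 0.36, beside 0.00 over all 3570 pairs of genes in the table. The members' median was 0.28 without that library and 0.14 without CD25pos ko/wt libraries 2 and 3. Serpinf1 and Clu were the least alike, at -0.08.

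The genes most like each member by this measure were often not members. For Syp they were Spns3 (0.79), Supv3l1 (0.76) and Ptgds, and for Ptgds they were Syp, Nudcd3 (0.74) and Rbfox3. Rbfox3 was followed by Ptgds, Psd (0.55) and Syp; without library 3 of CD25pos ko/wt its correlation with Psd was 0.19, and without libraries 2 and 3 it was 0.04. Eno2 was most like Ip6k1 (0.74), Sumf2 (0.56) and Nudcd3 (0.54), and Clu most like Nle1 (0.77), Psd (0.70) and Stard10 (0.69). Serpinf1 had no close partner: its highest were Gps2 (0.46), Ap5b1 (0.42) and Numa1 (0.40). Without libraries 2 and 3, Syp and Ptgds correlated at 0.30, Rbfox3 and Ptgds at 0.28 and Syp and Rbfox3 at -0.12, and Syp with Spns3 at 0.73 and with Supv3l1 at 0.56.

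Serpinf1 was also the only member among the genes deposited for the Cx3cr1-lineage cells, 716 genes over the disease course and 204 genes in the Ifngr set. In those libraries anti-HA antibody captured tagged ribosomes with their mRNA, IgG captured background and inputs held the whole brain homogenate. Its anti-HA level was 516.3 ± 142.4 normalized counts in non-immunized mice (SD, n = 6), 181 ± 76.0 at initiation (n = 4), 111 ± 27.6 at the disease maximum (n = 6), 182 ± 49.2 in remission (n = 8), 150.3 ± 50.9 in cure (n = 5) and 155 ± 24.0 at relapse (n = 4). Group means of the inputs lay between 53.4 and 65.7 and of the IgG libraries between 49.5 and 77.0. The genes of this table were chosen by the authors on such stage contrasts, so these levels are a description.

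In the Ifngr set, Serpinf1 was higher in ko/fl. The 4 anti-HA libraries of ko/wt ran from 46.6 through a median of 94.9 to 111, with a mean of 87.0 ± 28.1, and the 4 of ko/fl from 123 through 172 to 273, with a mean of 185 ± 73.5. All 204 genes of this set pass an adjusted p of 0.05 for this contrast in the authors' deposited table, so these levels too are a description. The groups did not overlap for Serpinf1, nor for 25.5% of the 204 genes that were higher and 54.4% that were lower in ko/fl. In the authors' deposited table the log2 fold change of ko/wt over ko/fl is -1.08 with a false discovery rate of 0.00210. The inputs were 46.0 ± 5.50 in ko/wt and 38.6 ± 6.92 in ko/fl, and the IgG libraries 36.0 ± 11.5 and 29.8 ± 10.8. In CD25pos T cells Serpinf1 was lower in ko/fl, at 3.37 ± 3.70 against 16.5 ± 8.86. The T cell and microglia tables were scaled separately, so only directions are set side by side.

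**Figure D5:**
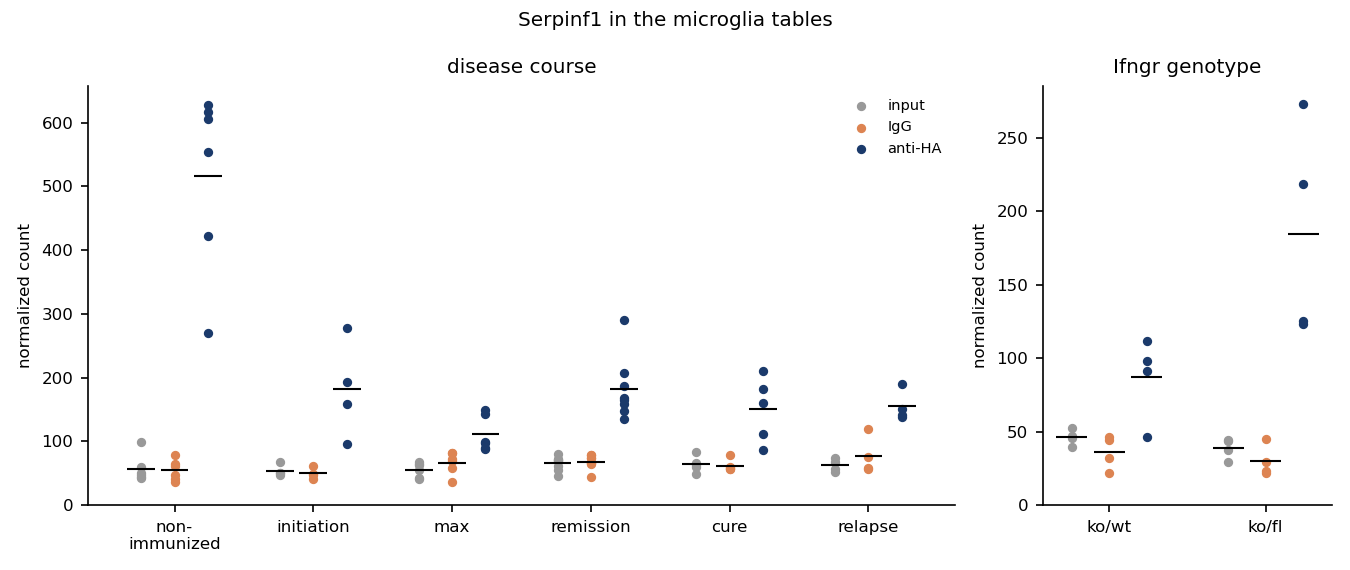
Serpinf1 in normalized counts (vertical axes, starting at 0) in input, IgG and anti-HA libraries of the disease course (left, 6 stages) and of the Ifngr genotypes (right); points are libraries and black lines group means, and the panels were scaled separately. The anti-HA mean is highest in non-immunized mice (516.3) and, in the Ifngr set, higher in ko/fl (185) than in ko/wt (87.0).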

How the data were processed

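PolyA-tailed RNA of T cells sorted from whole brain was sequenced, per the labels' protocols, and the submitters' processing notes name the build mm10; which aligner, counter and annotation were used was not found in the labels. The authors deposited a signal per gene and library, gene counts divided by a size factor; this unit was read from the values, of which 100% were whole multiples of 1 step, taken as 1 read, with a tolerance of 0.01 steps and, beyond that, 1e-07 of each multiple. Log2 fold changes and p-values (adjusted) in the authors' deposited tables come from a tool that neither labels nor headers name. Cluster numbers are another kind of value the authors deposited.

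Samples were grouped by titles and genotype labels. No libraries were identical. The members, marker lists and tests were chosen with earlier results of these data known. CD25neg ko/fl and ko/wt were compared with limma 3.58.1 (R 4.3.3) on log2(value + 1), all 23 libraries sharing 1 estimate of the spread. The test was two-sided with no filter on low values, Benjamini-Hochberg adjusted over 85 genes and called below 0.05. An exact permutation test over libraries was run beside it. The limma fit was tested on simulated data, with no outlier libraries and the same spread setting in all groups, unlike these data. Total reads of a library are unknown; reads over the 85 genes stand in for depth and set the counting intervals (Wilson for shares, exact for ratios, 95%). A value at 0 allows up to 3 reads. Coordinates are from GENCODE, promoters from RefSeq. All 6 members are named. Like genes are the 3 with the highest correlation, and marker genes the 3 with the smallest adjusted p of a list; Glul and Foxp3 were named beside this rule, after their values were seen. Alternatives changed the pseudocount, filter, scaling, libraries and block.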

Additional observations from a re-analysis of the deposited data

Results flagged for a closer look

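In 48 groups of 4 to 8 libraries, 12 had a highest or lowest library set apart from its group. Its gap to the nearest neighbour, as a share of the group's range, passed Dixon's 95% critical value. Chance flags about 1 in 20 where values are normally distributed. Low counts are not, so 12 of 48 is not read as an excess. In CD25pos ko/wt T cells, library 3 stood above the other 4 for Syp at 348, Rbfox3 at 32.1 and Ptgds at 160.3 normalized counts. In CD25neg ko/wt cells, library 3 was set apart for Ptgds at 20.4 and library 1 for Rbfox3 at 1.76, which is 2 reads with the other 5 libraries at 0. In CD25neg ko/fl cells, library 3 was set apart for Clu at 3.60, which is 5 reads, and in CD25pos ko/fl cells library 5 for Serpinf1 at 10.8, which is 9 reads.

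In the microglia libraries, Serpinf1 was set apart in non-immunized input 4 at 99.2, initiation input 4 at 67.1, remission anti-HA 4 at 290.9 and cure IgG 1 at 78.1, each above its group, and in remission IgG 4 at 44.5, below its group. What sets these libraries apart was not tested.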

How the results depend on the processing

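In the CD25neg genotype contrast, 0 genes were called by limma with a pseudocount of 0.1 or 10, equal library totals over the genes that are not members, a mean of at least 5 (68 genes, 4 of them members), the CD25neg libraries alone, or CD25pos ko/wt libraries 2 and 3 left out, the last chosen after seeing the data. Leaving out 1 library gave 0 to 1 genes; the 1 was Twf1, which is no member, without CD25neg ko/wt library 1 (log2 difference 1.17, adjusted p 0.0331), and the cause was not tested. No member was called under these settings, and each kept its direction where it was fitted; Rbfox3 and Clu fell below the mean of 5. The adjusted p of Ptgds ranged from 0.116 with the CD25neg libraries alone to 0.896 without CD25neg ko/fl library 2. With equal totals its groups still did not overlap, at 6.31 against 6.26. The replicate numbers did not pair the CD25neg libraries: 6 same-numbered pairs correlated at -0.13 to 0.08, and 0 of 6 correlated best with its own number. With the replicate block, 0 genes were called and Ptgds had an adjusted p of 0.569. The count tests planned on whole reads were not run, since the table holds too few low values for reads to be accepted as recovered.

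With a pseudocount of 10 the described CD25pos differences of all 6 members shrank, to -1.39 for Syp, -0.85 for Eno2, -0.66 for Rbfox3, -0.83 for Clu, -1.30 for Ptgds and -0.96 for Serpinf1, and with 0.1 that of Rbfox3 was -3.29. The ko/wt fraction differences of Rbfox3 and Serpinf1 were 4.15 and 3.63 with 0.1, and those of Rbfox3, Serpinf1 and Eno2 0.68, 0.98 and 0.86 with 10. The ko/fl fraction difference of Clu was 1.55 with 0.1. Equal totals moved the median of all 85 genes from -0.82 to -0.53 and that of the members from -2.01 to -1.78. Low reads limit Rbfox3 and Clu most.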

Other observations

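Library 3 had the highest Syp and Ptgds of its group in both ko/wt fractions, at 22.1 and 20.4 normalized counts in CD25neg and 348 and 160.3 in CD25pos cells, while Rbfox3 had 0 reads in CD25neg library 3 and 14 in CD25pos library 3. The labels do not say whether libraries of the same number share an animal, and over all 85 genes the 5 same-numbered ko/wt pairs of the fractions correlated at -0.06 to 0.36, with 2 over 0.1.

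In CD25pos ko/fl cells Syp was highest in libraries 6 and 1, at 8.68 and 7.43 normalized counts, and Serpinf1 in library 5, at 10.8, where Syp had 1 read.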
